A study of Mus musculus with 4 samples.

Results

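10 regulators of the presomitic mesoderm and of somite formation were followed in posterior tissue of mouse embryos: Msgn1, Tbx6, Mesp1, Mesp2, Ripply1, Ripply2, Snai1, Cited1, Tcf15 and Meox1. They were chosen by name, as genes placed along the path from the unsegmented posterior tissue to the formed somite. The choice was made with earlier results of these data known. The arrays held 10 named probes for 8 of the 10 genes, among 41174 probes and 18220 named genes, and all 8 were among the 13580 genes tested. Mesp1 and Meox1 had 2 probes each. No probe was matched by accession to Ripply1 or Ripply2, and both are not analysed here.

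Jmjd3-/- embryos, homozygous mutants of the histone H3 demethylase gene now named Kdm6b, were compared with wild-type embryos. The embryos were taken at E9.5 from crosses between heterozygous carriers and staged by time after mating and by somite number. Each genotype had 2 RNA samples, numbered 1 and 9 for Jmjd3-/- and 3 and 4 for wild-type, each on its own 1-colour Agilent array of the same slide. The sources used here do not give the deleted part of the gene, nor the number of embryos, their sex or the somite count of a sample. The p-values therefore cover the spread between these RNA samples, which may be technical.

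The presomitic mesoderm is the strip of unsegmented tissue on either side of the neural tube that is fed by progenitors in the tail bud and that splits off somites at its front end. Cells in its posterior part express Msgn1 and Tbx6, transcription factors that commit progenitors to the paraxial mesoderm. As the front of the tissue matures, Mesp2 is switched on where the next boundary will form, and the somite that results expresses Tcf15, which is needed for its epithelial shape, and Meox1, a homeobox gene of somite patterning.

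The promoters of Mesp1 and Mesp2 are shown because these paralogs lie next to each other on chromosome 7 and their signals moved together from array to array. The sequences are from RefSeq, build GRCm38.p6, and are written 5′ to 3′ on the strand of the gene. The first pair covers the 250 bases before each annotated start, at chr7:79793591-79793840 on the minus strand for Mesp1 and chr7:79810477-79810726 on the plus strand for Mesp2. Capitals mark the E-box letters CANNTG, the kind of site bound by bHLH factors, and the T-box core AGGTGT on either strand.
Mesp1: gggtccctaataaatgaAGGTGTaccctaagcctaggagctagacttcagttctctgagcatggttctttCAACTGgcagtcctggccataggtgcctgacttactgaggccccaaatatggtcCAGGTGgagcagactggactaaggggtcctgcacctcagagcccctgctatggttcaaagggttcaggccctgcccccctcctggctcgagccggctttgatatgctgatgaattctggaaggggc
Mesp2: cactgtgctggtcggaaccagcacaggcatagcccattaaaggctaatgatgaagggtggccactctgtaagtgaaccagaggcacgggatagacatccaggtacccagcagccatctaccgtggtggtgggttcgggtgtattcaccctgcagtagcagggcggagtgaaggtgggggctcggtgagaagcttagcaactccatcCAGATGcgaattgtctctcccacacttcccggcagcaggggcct

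Just after the start, both genes held the longer T-box site letters AGGTGTG, read as CACACCT and marked in capitals in the 30 bases below. The Mesp1 stretch is chr7:79793566-79793595 on the minus strand and the Mesp2 stretch chr7:79810744-79810773 on the plus strand.
Mesp1: ggggcccgcttCACACCTagggctcaggat
Mesp2: gggtcagaatcCACACCTctgcaaatgggc

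The longer site begins at base 7 of the Mesp1 transcript and at base 29 of the Mesp2 transcript. It was present in 5.84% of the 32851 promoter windows of the same length in the table, each of 300 bases, from 250 before the start to 50 after it. The T-box core alone, which every longer site contains, was in 13.7% of windows and the E-box letters in 72.3%. RefSeq windows were matched for 8 of the 10 genes, without Tcf15 and Meox1. The longer site was in none of the windows of Msgn1, Tbx6, Snai1, Cited1, Ripply1 and Ripply2. A match of letters is a description of the sequence and not a measured site.

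Msgn1 is shown for a different pair of letters. In the 30 bases at chr12:11209042-11209071 on the minus strand, TTCCCA was followed directly by CTTTGT, and both are in capitals. They are the reverse complements of the Rbpj letters TGGGAA and of the Lef/Tcf letters ACAAAG.
Msgn1: gggccccctTTCCCACTTTGTccccgatcc

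Rbpj carries Notch signals and Lef/Tcf factors carry Wnt signals to DNA. The Rbpj letters were in 25.6% and the Lef/Tcf letters in 18.7% of the windows searched. How many windows hold both, or hold them side by side, was not counted. Among the other genes with a window, the Lef/Tcf letters were also in that of Snai1, and the Rbpj letters were in none. The annotated Msgn1 model starts at its start codon. The windows also differed in CpG content: the ratio of observed to expected CpG was 0.197 for Msgn1, 0.174 for Mesp1, 0.286 for Tbx6 and 0.403 for Mesp2, against 0.925 for Snai1 and a median of 0.384 over all windows. The Cited1 windows ranged from 0.530 to 1.02 over its 3 annotated starts. The Ripply1 window held 0 CpG, and Ripply2 had the highest ratio of the regulators, 1.06.

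On the arrays, Kdm6b itself had a normalised log2 signal of 0.35 in Jmjd3-/- replicate 1 and 0.11 in replicate 9, against 2.15 in wild-type replicate 3 and 2.23 in replicate 4. The difference was -1.96 (SE 0.12, adjusted p = 0.149, limma), so Kdm6b did not pass an adjusted p of 0.05. A normalised log2 signal is the log2 processed intensity less the 75th percentile of its array, so that 0 is the level of that percentile. The place of its probe relative to the deletion is unknown here, and a probe outside the deleted part would not check the labels. Markers listed for posterior tissue were measured, with 10 of 10 well above background on every array, and so were 7 of 9 head and branchial arch markers on at least 1 array. The other two, Otx2 and Six3, were not well above background on any array. The Jmjd3-/- arrays stood further from each other than the wild-type arrays did, with 430 of 13580 genes more than 2-fold apart between the Jmjd3-/- arrays and 157 between the wild-type arrays. Replicate 9 was 353 and 332 genes from the wild-type arrays, fewer than from replicate 1, and replicate 1 was 805 and 706 genes from them. Of all genes tested, 5 passed an adjusted p of 0.05 (limma), which is 0.0368%. That count was 176 without Jmjd3-/- replicate 9 and 0 without each of the other arrays (643 to 1940 genes at an unadjusted p under 0.05, limma).

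The comparison of the genotypes asks how these regulators differ when Jmjd3 is lost. The 3 with the largest differences, Msgn1, Tbx6 and Cited1, were higher on both Jmjd3-/- arrays than on either wild-type array, by 2.10-fold to 3.44-fold in the mean. A log2 difference of 1 or more, which these 3 had, was measured for 0.913% of all genes tested. Because the genes were chosen with earlier results known, such shares describe them and are not a test. Tcf15 was higher by 1.21-fold. Mesp1 and Mesp2 were above both wild-type arrays on 1 Jmjd3-/- array and below both on the other. Snai1 and Meox1 differed by -0.11 and -0.06 on the log2 scale. None of the 8 passed after adjustment over all 13580 genes tested (adjusted p from 0.337 to 0.941, limma). At an unadjusted p under 0.05, 4 of 8 were higher and 0 were lower (limma), against 5.15% of all genes tested that were higher and 5.93% that were lower. Without either wild-type array only Tbx6 was at that p, with 4.73% and 4.96% of all genes in either direction. Without Jmjd3-/- replicate 1 there were 3 higher (Msgn1, Tbx6 and Cited1) and 2 lower (Mesp1 and Mesp2), with 5.97% of all genes higher and 8.31% lower. Without Jmjd3-/- replicate 9 there were 6 higher and 0 lower, with 12.9% of all genes higher and 17.0% lower. In bulk tissue, more cells that express a gene and more RNA per cell cannot be told apart.

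**Figure D1:**
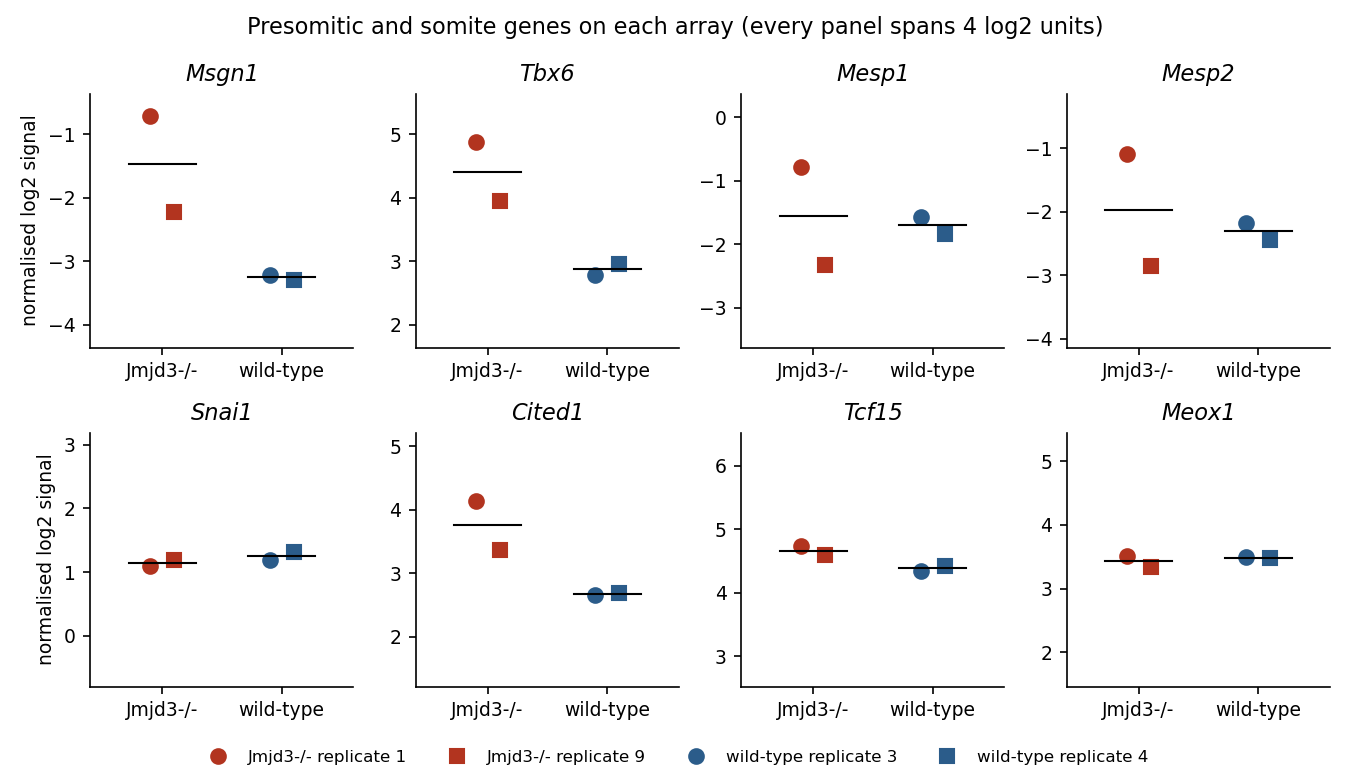
Normalised log2 signal (vertical axis) of the 8 measured genes on the 4 arrays, by the brighter probe where a gene had 2; circles and squares are the arrays, the Jmjd3-/- arrays are left of the wild-type arrays, horizontal lines are group means, and every panel spans the same range. Msgn1, Tbx6 and Cited1 lie higher on both Jmjd3-/- arrays, and the Jmjd3-/- arrays of Mesp1 and Mesp2 lie on opposite sides of the wild-type arrays.

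Msgn1 encodes a bHLH factor that drives progenitors out of the tail bud and into the presomitic mesoderm. Its normalised log2 signal measured -0.72 in Jmjd3-/- replicate 1 and -2.22 in replicate 9, against -3.21 in wild-type replicate 3 and -3.29 in replicate 4. All 4 arrays measured it well above background, and the genotypes did not overlap. The log2 difference was 1.78 (SE 0.55, n = 2 per genotype, 95% interval 0.22 to 3.35, adjusted p = 0.412, limma), or 3.44-fold. Jmjd3-/- replicate 1 stood 5.79-fold and replicate 9 stood 2.05-fold above the wild-type mean. The processed intensities were 367 and 124 in Jmjd3-/- and 65 and 64 in wild-type, so the wild-type signal was among the dimmer ones here. The size of the Msgn1 difference depended on the background correction. With normexp, an alternative correction, it was 1.21, below the 1.53 of Tbx6 in that setting.

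Tbx6 encodes a T-box factor that specifies paraxial mesoderm at the expense of neural tissue and acts upstream of Mesp2. It had signals of 4.87 in Jmjd3-/- replicate 1 and 3.95 in replicate 9, against 2.78 in wild-type replicate 3 and 2.96 in replicate 4. The lowest Jmjd3-/- array lay 0.98 above the highest wild-type array. The difference was 1.54 (SE 0.35, n = 2 per genotype, 95% interval 0.55 to 2.52, adjusted p = 0.337, limma), or 2.90-fold. Tbx6 had rank 45 and Msgn1 rank 33 among all genes tested when ordered by the log2 difference with the planned processing. Both Jmjd3-/- arrays lay at least 1 log2 unit above the wild-type mean for these 2 genes, which was the case for 59 of 13580 genes (0.434%).

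Cited1 encodes a transcriptional coactivator without DNA-binding activity of its own and lies on the X chromosome. Its signal measured 4.14 in Jmjd3-/- replicate 1 and 3.36 in replicate 9, against 2.66 in wild-type replicate 3 and 2.69 in replicate 4. As for Msgn1 and Tbx6, replicate 1 was the highest array and the wild-type arrays lay close together. The difference was 1.07 (SE 0.29, n = 2 per genotype, 95% interval 0.25 to 1.90, adjusted p = 0.377, limma). The X-linked gene Xist, the RNA that coats the inactive X chromosome, was also highest on replicate 1, with 2.92 in Jmjd3-/- replicate 1 and 1.82 in replicate 9, against 2.10 in wild-type replicate 3 and 2.18 in replicate 4. The 4 Y-linked genes looked at, Ddx3y, Eif2s3y, Kdm5d and Uty, were not well above background on any array. The part of sex in the Cited1 difference was not tested.

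Mesp1 and Mesp2 encode bHLH factors. Mesp2 sets the next somite boundary and the front portion of the coming somite, and Mesp1 is best known for early cardiac mesoderm and is also expressed in the anterior presomitic mesoderm. The brighter Mesp1 probe gave -0.78 in Jmjd3-/- replicate 1 and -2.32 in replicate 9, against -1.57 in wild-type replicate 3 and -1.83 in replicate 4. The dimmer Mesp1 probe gave -1.34 and -3.02 in Jmjd3-/-, against -2.12 and -2.31 in wild-type. Both probes placed the arrays in the same order, and the dimmer differed by 0.04 between the genotypes (SE 0.62).

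Mesp2 gave -1.09 in Jmjd3-/- replicate 1 and -2.85 in replicate 9, against -2.18 in wild-type replicate 3 and -2.44 in replicate 4. The genotypes overlapped for both genes, with the wild-type arrays between the Jmjd3-/- arrays. The difference was 0.15 for Mesp1 (SE 0.57, 95% interval -1.46 to 1.76, adjusted p = 0.941, limma) and 0.34 for Mesp2 (SE 0.65, 95% interval -1.50 to 2.18, adjusted p = 0.873, limma), with n = 2 per genotype. Both intervals hold differences as large as the 1.54 of Tbx6 as well as differences below 0.

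The Jmjd3-/- arrays lay far apart for Mesp1 and Mesp2. The log2 distance between them was 1.53 for Mesp1 and 1.76 for Mesp2, or 2.89-fold and 3.38-fold, with replicate 1 the higher. Among all genes tested, 1.05% had Jmjd3-/- arrays at least as far apart as Mesp1 and 0.677% as far apart as Mesp2. For Msgn1 that distance was 1.5 and for Tbx6 0.92. Msgn1, Mesp1 and Mesp2 were 3 of the genes, 1.10% of all tested, whose Jmjd3-/- arrays lay 1.5 or more apart, a limit chosen after the values were seen. The placing of 1 Jmjd3-/- array above and the other below both wild-type arrays was itself common, at 21.5% of all genes tested, and 3 of the 8 genes showed it, Mesp1, Mesp2 and, within a narrow range, Meox1.

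The 8 nearest protein-coding genes in the RefSeq order, 4 on each side of the Mesp1 and Mesp2 pair, were looked at after these values were seen. Of these, 6 were tested, and their Jmjd3-/- arrays differed by -0.19 to 0.25. The larger distance was thus not shared by the tested neighbours. The files hold no probe sequence, and whether the Mesp1 and Mesp2 probes bind each other's transcript was not tested.

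**Figure D2:**
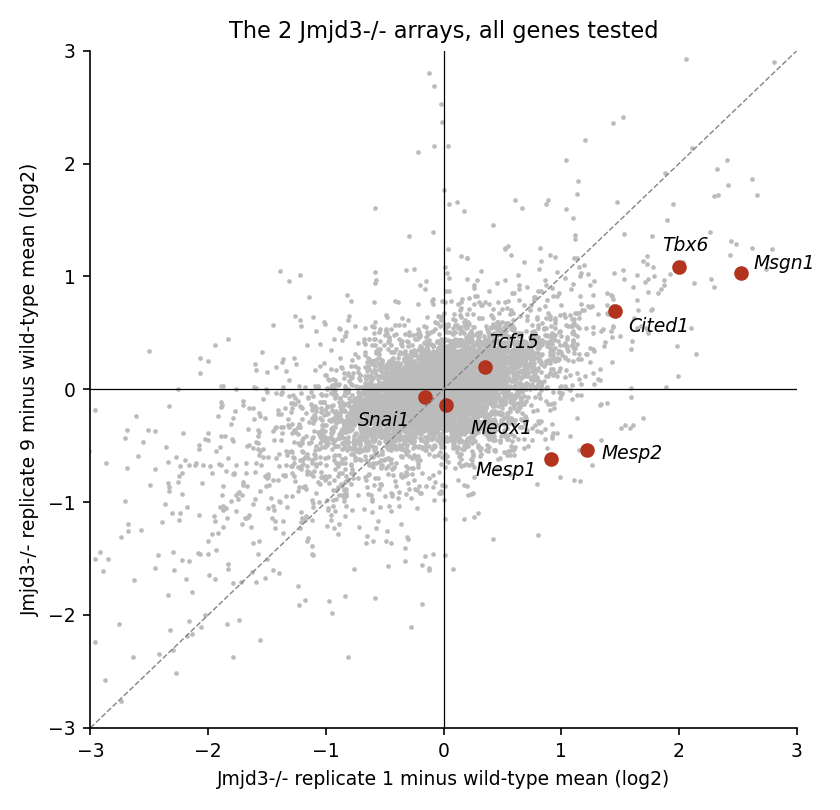
Each point is a gene, with its log2 signal on Jmjd3-/- replicate 1 less the wild-type mean on the horizontal axis and on Jmjd3-/- replicate 9 less the wild-type mean on the vertical axis; the dashed line marks equal values, the 8 regulators are in red, and 56 genes lie outside the axes. Msgn1, Tbx6 and Cited1 are positive on both axes and further out on replicate 1, while Mesp1 and Mesp2 are positive on replicate 1 and negative on replicate 9.

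Tcf15, also called paraxis, encodes the bHLH factor that lets somites become epithelial. Its signal measured 4.73 in Jmjd3-/- replicate 1 and 4.59 in replicate 9, against 4.35 in wild-type replicate 3 and 4.42 in replicate 4. The genotypes did not overlap, and the distance between them was small. The difference was 0.28 (SE 0.09, n = 2 per genotype, 95% interval 0.02 to 0.53, adjusted p = 0.428, limma). Replicates 1 and 9 lay 0.35 and 0.20 above the wild-type mean.

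Meox1 had signals of 3.51 in Jmjd3-/- replicate 1 and 3.34 in replicate 9 with the brighter probe, against 3.49 in wild-type replicate 3 and 3.48 in replicate 4. The dimmer probe gave 2.0 and 1.81 in Jmjd3-/-, against 1.97 and 1.95 in wild-type. On both probes the wild-type arrays lay between the Jmjd3-/- arrays. The difference was -0.06 with each probe, with a 95% interval of -0.32 to 0.20 for the brighter (SE 0.09, n = 2 per genotype, adjusted p = 0.842, limma). Differences of the size measured for Msgn1, Tbx6 and Cited1 lie outside that interval.

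Snai1 encodes a zinc-finger repressor of epithelial genes that mesoderm cells use as they leave the epithelium. It had 1.09 in Jmjd3-/- replicate 1 and 1.19 in replicate 9, against 1.19 in wild-type replicate 3 and 1.31 in replicate 4. The genotypes were next to each other, with 0.00895 log2 units between the nearest arrays. The difference was -0.11 (SE 0.09, n = 2 per genotype, 95% interval -0.36 to 0.14, adjusted p = 0.668, limma).

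Ordered along the axis, the posterior pair Msgn1 and Tbx6 had a median of 2.27 above the wild-type mean in Jmjd3-/- replicate 1 and 1.05 in replicate 9. The somite pair Tcf15 and Meox1 had a median of 0.18 in replicate 1 and 0.03 in replicate 9. On each Jmjd3-/- array the posterior pair was thus further above wild-type than the somite pair. This is a description of 2 arrays, and the difference between the pairs was not tested. Over the 8 genes the median log2 difference was 0.31, against -0.01 over all genes tested, and 6 of 8 differences were above 0, against 46.9% of all genes. Leaving out Jmjd3-/- replicate 1 gave a median of 0.07, and leaving out replicate 9 gave 1.07. The genotypes did not overlap for 5 of 8, against 46.7% of all genes. Of these 5, 4 were higher and 1 was lower in Jmjd3-/-, and of all genes tested 23.0% were higher and 23.7% lower without overlap.

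**Figure D3:**
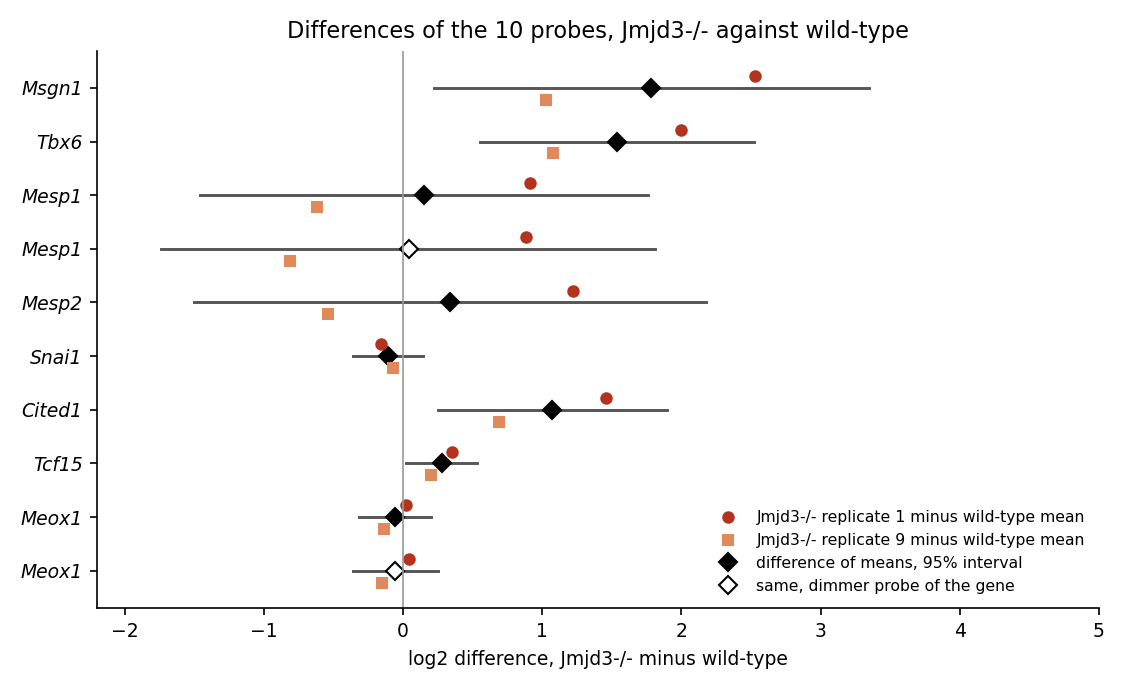
Log2 difference, Jmjd3-/- minus wild-type (horizontal axis), for each of the 10 probes: diamonds are differences of means with 95% intervals (open for the dimmer probe of a gene), and coloured points are each Jmjd3-/- array less the wild-type mean. The intervals of Msgn1, Tbx6, Cited1 and Tcf15 lie above 0. Those of the Mesp1 and Mesp2 probes reach below -1 and above 1, and those of Snai1 and Meox1 are narrow and include 0. The intervals are not adjusted for the number of genes tested, and none of these genes passed the adjusted threshold.

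Genes that surround these regulators in the tissue were read from lists chosen by function, with earlier results of these data known. Of all genes tested, 46.9% had a positive difference, and 5.15% were higher and 5.93% lower at an unadjusted p under 0.05 (limma). Tail bud progenitor genes, which act just behind Msgn1, had a positive difference in 17 of 17 tested cases, with a median of 0.87, and 13 were higher and 0 lower at an unadjusted p under 0.05. The list median was 1.33 above the wild-type mean in Jmjd3-/- replicate 1 and 0.62 in replicate 9. None passed the adjusted threshold (lowest adjusted p = 0.233, limma). Cdx2, a caudal homeobox gene, had 3.03 in Jmjd3-/- replicate 1 and 2.48 in replicate 9, against 1.19 in wild-type replicate 3 and 1.42 in replicate 4. Wnt3a, a signal of the tail bud, had 1.70 and 1.09 in Jmjd3-/-, against -0.15 and 0.11 in wild-type. Cdx1 and Fgf17, the other genes of lowest p in the list, differed by 0.79 (SE 0.11) and 1.33 (SE 0.24).

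Genes of the segmentation clock and the tissue that carries it had a median of 0.42 over 25 tested genes. Of these 21 were positive, against 46.9% of all genes. At an unadjusted p under 0.05, 6 were higher and 2 lower, against 5.15% and 5.93% of all genes. Taken per array, the list median came to 0.54 in Jmjd3-/- replicate 1 and 0.26 in replicate 9. None passed the adjusted threshold (lowest adjusted p = 0.233, limma). Dll1, a Notch ligand gene that Tbx6 activates, had 2.31 in Jmjd3-/- replicate 1 and 1.79 in replicate 9, against 0.93 in wild-type replicate 3 and 1.17 in replicate 4. Dll3, another Notch ligand gene of this tissue, had 4.20 and 3.32 in Jmjd3-/-, against 2.38 and 2.53 in wild-type. Nrarp, a feedback inhibitor of Notch, had 0.83 and 0.80 in Jmjd3-/-, against 0.02 and 0.20 in wild-type, so for this gene both Jmjd3-/- arrays were about equally high. Heyl, a repressor gene that Notch induces, was lower, with -0.99 and -0.74 in Jmjd3-/- against -0.45 and -0.32 in wild-type. Epha4, a boundary receptor gene that Mesp2 activates and that was named here for that reason after its values were seen, had 1.71 and 0.33 in Jmjd3-/-, against 0.53 and 0.63 in wild-type. As for Mesp2, the wild-type arrays lay between the Jmjd3-/- arrays. That placing was found for 4 of the 25 genes of the list, against 21.5% of all genes tested. Lfng, another of the 4, had replicate 9 as the higher, with -3.84 and -3.30 in Jmjd3-/- against -3.75 and -3.58 in wild-type.

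Genes of the formed somite had the opposite sign on balance, with 16 of 21 tested genes negative, against 53.1% of all genes, and a median of -0.37. At an unadjusted p under 0.05, 6 were lower and 0 higher, against 5.93% and 5.15% of all genes. The list median per array was -0.49 in Jmjd3-/- replicate 1 and -0.25 in replicate 9. The myogenic genes Myf5, Myf6 and Myog entered the test only through the wild-type arrays, where they were higher, so the filter favoured a negative sign. Among the other 18 genes, 13 were negative and 5 positive, the median was -0.15, and 5 were lower and 0 higher at that p. None passed the adjusted threshold (lowest adjusted p = 0.219, limma). Meox2, the relative of Meox1, had 0.73 in Jmjd3-/- replicate 1 and 0.87 in replicate 9, against 1.25 in wild-type replicate 3 and 1.18 in replicate 4. Tbx18, which marks the front portion of the somite, had -2.44 and -2.53 in Jmjd3-/-, against -1.37 and -1.64 in wild-type. Pax9, a gene of the sclerotome, had -3.38 and -3.0 in Jmjd3-/-, against -2.43 and -2.37 in wild-type. Pax7, a gene of the dermomyotome, differed by -0.76 (SE 0.14). The lists, like the 8 regulators, describe the samples and are not a test of direction.

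**Figure D4:**
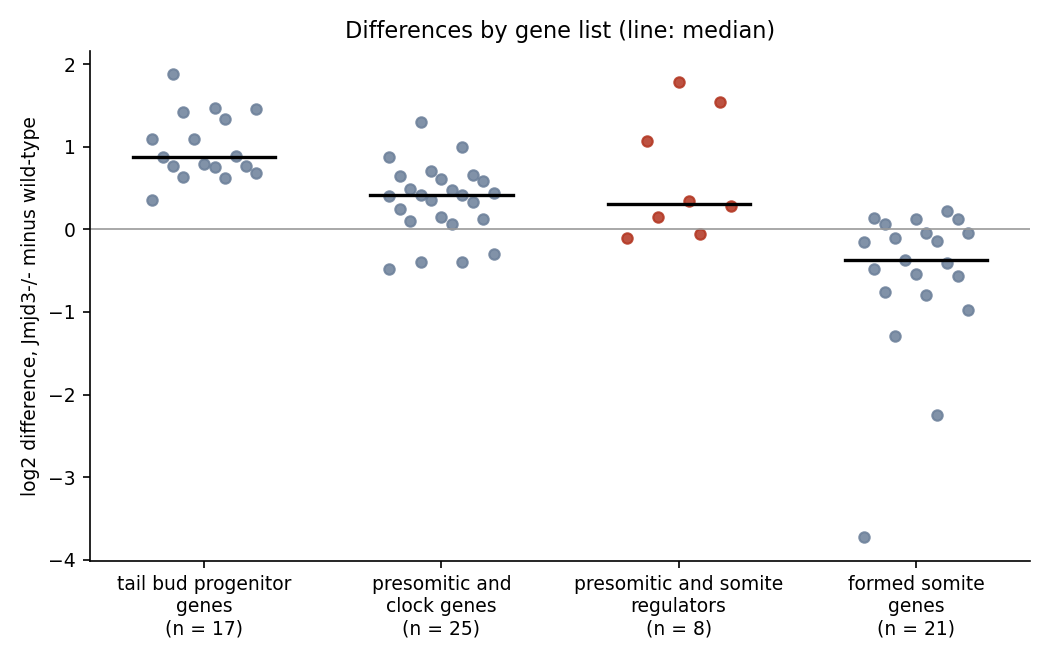
Log2 difference, Jmjd3-/- minus wild-type (vertical axis), of every tested gene in 4 lists; each point is a gene and the line is the median of the list. The medians are 0.87 for tail bud progenitor genes, 0.42 for presomitic and clock genes, 0.31 for the regulators described here and -0.37 for formed somite genes.

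Epithelial and mesenchymal genes that are read beside Snai1 were split, with 7 of 15 positive, against 46.9% of all genes, and a median of -0.03. At an unadjusted p under 0.05, 3 were higher and 1 lower, against 5.15% and 5.93% of all genes. Cdh1, the E-cadherin gene that Snai1 represses, had 0.48 in Jmjd3-/- replicate 1 and 0.48 in replicate 9, against 0.22 in wild-type replicate 3 and 0.10 in replicate 4. Fn1, the fibronectin gene, had 2.47 and 1.57 in Jmjd3-/-, against 1.03 and 1.07 in wild-type. Twist1 and Crb3 differed by -0.54 (SE 0.18) and 0.21 (SE 0.08). None passed the adjusted threshold (lowest adjusted p = 0.366, limma).

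By the 4 array values centred on their mean, the tested genes nearest to Tbx6 were Evx1 (Euclidean distance 0.0672 log2 units), Stra6l (0.158), Lhx5 (0.189), Adamtsl2 (0.193) and Greb1 (0.220). Evx1 had 1.41 in Jmjd3-/- replicate 1 and 0.52 in replicate 9, against -0.60 in wild-type replicate 3 and -0.41 in replicate 4. Among the regulators, Cited1 was in place 33 and Msgn1 in place 39 by that distance, with Mesp2 in place 1140 and Mesp1 in place 2035. With 4 arrays this orders genes by their level on each array and nothing more.

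Markers of the posterior embryo and of other tissues also differed between these arrays. The 10 posterior embryo markers, some of them also in the tail bud list, summed to 64.2 and 48.7 multiples of the 75th percentile in Jmjd3-/- and to 34.8 and 37.8 in wild-type. Their median log2 difference was 0.55, with 7 of 10 positive, against 46.9% of all genes. At an unadjusted p under 0.05, 5 were higher and 1 lower, against 5.15% and 5.93% of all genes. The summed normalised intensity of the 9 head and branchial arch markers with a named probe, of 11 listed, in multiples of the 75th percentile of each array, came to 1.14 in Jmjd3-/- replicate 1 and 2.10 in replicate 9, against 4.77 in wild-type replicate 3 and 5.49 in replicate 4. For 12 neural tube markers, of 13 listed, it was 6.12 and 10.1 in Jmjd3-/- against 11.1 and 11.3 in wild-type, and for 9 heart markers 4.02 and 5.48 against 10.5 and 7.09. The 8 primitive blood markers summed to 313 and 442 in Jmjd3-/- against 470 and 595 in wild-type, the 9 lateral plate and limb markers to 6.0 and 5.46 against 7.09 and 6.96, and the 8 endothelial markers to 11.3 and 10.8 against 13.4 and 13.1. The 8 gut and notochord markers summed to 136 and 167 in Jmjd3-/- against 136 and 106 in wild-type. Such sums follow the brightest genes of a list. Of the head and branchial arch markers, the brightest on the wild-type arrays were Lhx2 and Barx1. Lhx2 had -2.09 and -0.08 in Jmjd3-/-, against 1.35 and 1.61 in wild-type. Barx1 differed by -2.75 (SE 0.1, adjusted p = 0.0409, limma) and passed the adjusted threshold, which the other tested head markers did not. In the gut and notochord list the brightest were Krt18, with 6.32 and 6.58 in Jmjd3-/- against 6.25 and 5.93 in wild-type, and Krt8. The median log2 difference of this list was 0.07. Of the tested markers, 5 of 6 head, 11 of 12 neural, 6 of 9 heart and 7 of 8 blood genes had a negative difference, against 53.1% of all genes tested. So did 8 of 9 lateral plate and limb, 7 of 8 endothelial and 3 of 8 gut and notochord genes. Dcx in the neural list and Nkx2-5 in the heart list entered the test only through wild-type, where the filter favoured a negative sign, and Myh6 in the heart list only through Jmjd3-/-. Without these 3 genes 10 of 11 neural and 4 of 7 heart genes were negative. By the sums, replicate 1 was the lowest array for the head, neural, heart and blood lists. Replicate 9 was the lowest for the lateral plate and limb list and for the endothelial list. Replicate 1 was the highest array for Msgn1, Tbx6 and Cited1. The part of tissue makeup and of stage in the differences was not tested.

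Without Jmjd3-/- replicate 9, Msgn1 and Cited1 passed the adjusted threshold (adjusted p = 0.0465 each, limma, with replicate 1 assumed to vary like the wild-type arrays), with differences of 2.53 and 1.46. Without Jmjd3-/- replicate 1 their differences were 1.03 and 0.69, and those of Mesp1 and Mesp2 turned to -0.62 and -0.54.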

How the data were processed

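Cy3-labelled RNA from posterior tissue of Jmjd3-/- and wild-type embryos was measured on 1-colour arrays, 2 per genotype. The deposited scanner files hold spot intensity in arbitrary units, from Agilent Feature Extraction 10.7.3.1, per the file headers. The processed value has background and spatial trends taken off within the array, per the file headers. A deposited table of log2 values, whose scale no label states, matched the scanner values less each array's 75th percentile and the wild-type mean (r from 0.9947 to 0.9975 across probes, column medians -0.02 to 0.05). The arrays share 1 slide, the Jmjd3-/- arrays at the ends of the row, so position and genotype cannot be told apart. The median local background was 138 to 141 units, 59.8% to 63.0% of probes were well above background and 0 were saturated. Precision is limited by how few arrays there are.

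Control spots (1639 of 45018) were left out, the spots of a probe averaged on the log2 scale, and each array's 75th percentile subtracted. RefSeq (GRCm38.p6) accessions and synonyms left 14464 probes without a name. The brightest probe stood for a gene, which was tested if well above background on both arrays of a genotype. The genotype difference was fitted in R 4.3.3 with limma 3.58.1 (lmFit, eBayes, Benjamini-Hochberg over 13580 genes, threshold 0.05), and dimmer probes in a fit over 25056 probes. Procedures were tested on simulated data. The genes and lists were chosen with earlier results of these data known. Named were the regulators, Kdm6b, the 4 genes of lowest p per list, the 5 nearest to Tbx6 and the sex-linked genes. The normexp alternative used the median spot signal, since the files hold no mean signal.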

Additional observations from a re-analysis of the deposited data

How the results depend on the processing

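Over 13 other settings the 8 single genes kept their direction and their side of the threshold in 99 of 104 cases. Part of this was fixed in advance. Changing the detection filter or the prior leaves every difference as it was, and the deposited log2 values are the same measurements. None of the 8 passed with the planned processing, so keeping the side of the threshold meant not passing. Over arrays left out, Mesp1 ranged from -0.62 to 0.91, Mesp2 from -0.54 to 1.22 and Meox1 from -0.14 to 0.02. Mesp1 and Mesp2 were negative without Jmjd3-/- replicate 1, and Meox1 was positive without replicate 9. Without replicate 9, Msgn1 (2.53) and Cited1 (1.46) passed the threshold. With normexp the Msgn1 difference was 1.21, below the 1.53 of Tbx6. The count of all genes past the threshold, 5 with the planned processing, was 7 with median scaling, 2 with normexp, 3 when probes of a gene were averaged, 3 with a trended prior, and 0 with quantile normalisation, with no detection filter and when detection on all 4 arrays was required (limma; 1465, 1621 and 1415 genes at an unadjusted p under 0.05). Leaving out 1 array gave 0 to 176. The regulators at an unadjusted p under 0.05, 4 of 8, were 1 to 6 when 1 array was left out: 1 without either wild-type array, 3 higher and 2 lower without Jmjd3-/- replicate 1 (1940 of all genes) and 6 higher without replicate 9 (4056 of all genes, or 29.9%). With median scaling, quantile normalisation and no detection filter, 3 of 8 were higher at that p (limma), and Tcf15 was not among them. Of all genes, 4.74%, 5.21% and 4.21% were higher at that p under these settings. The median difference of the regulators, 0.31, was 0.07 without replicate 1 and 1.07 without replicate 9. The cause was not tested. No paired analysis was possible because the genotypes share no replicate number. The number of arrays, 2 per genotype, limits the precision.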

Other observations

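Relatives and cofactors of the regulators were a list chosen by function, with earlier results of these data known. Of its 21 tested genes, 16 were negative, against 53.1% of all genes. Their median log2 difference was -0.22 (Jmjd3-/- minus wild-type). At an unadjusted p under 0.05, 7 were lower and 0 higher, against 5.93% and 5.15% of all genes. None of the list passed the adjusted threshold (lowest adjusted p = 0.219, limma). Of the 4 genes with the lowest p, 3 were T-box genes. Tbx5, a forelimb and heart gene, had -1.54 in Jmjd3-/- replicate 1 and -1.18 in replicate 9, against -0.23 in wild-type replicate 3 and -0.38 in replicate 4. Tbx2 had -0.90 and -0.58 in Jmjd3-/-, against -0.02 and -0.10 in wild-type, and Tbx18 differed by -0.98 (SE 0.12). Of the other T-box genes in the list, looked at after their values were seen, T differed by 1.09 (SE 0.41), Tbx1 by -0.68 (SE 0.14), Tbx20 by -0.25 (SE 0.31), Tbx3 by -0.09 (SE 0.11) and Tbx4 by -0.03 (SE 0.36). The Groucho-type corepressor gene Tle2, of a family that Ripply proteins of zebrafish recruit, had -2.07 and -2.01 in Jmjd3-/-, against -1.61 and -1.37 in wild-type. The other Tle genes in the list went both ways. Tle4 differed by 0.50 (SE 0.20), Tle3 by 0.15 (SE 0.08) and Tle1 by -0.47 (SE 0.34).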
